A study of Mus musculus with 4 samples.

Results

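Transcript levels of 34 genes of sterol and fatty acid synthesis were compared in 4 sorted myeloid populations of mouse EO771 tumours (EO771 is a mammary carcinoma cell line). The genes were taken by symbol from a table of 13976 genes, which held every one of the 34. They comprised 17 enzymes of the sterol pathway, 7 sterol regulators and carriers, and 10 fatty acid enzymes. The populations were a dendritic cell (DC) population with intermediate CD103 and with CD11b (CD103int DC), CD103+ conventional DC of type 1 (cDC1), CD11b+ conventional DC of type 2 (cDC2) and macrophages, with 1 library each. The labels give no strain, age, number of mice or sorting gates, and do not state if any mouse was given hetIL-15, the heterodimeric cytokine of the title, so a treatment shared by the populations is unknown.

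Cells build cholesterol from acetyl-CoA through mevalonate, isoprenoids, squalene and lanosterol. They build fatty acids from the same precursor by carboxylation, chain synthesis, elongation and desaturation. The transcription factors SREBP-2 (gene Srebf2) and SREBP-1 (gene Srebf1) switch on the genes of both routes when membrane sterol is low: SCAP escorts them out of the endoplasmic reticulum, and the INSIG proteins hold the SCAP complex back when sterol is high. On sterol alone, oxysterol-activated liver X receptors (LXR) act the other way, driving sterol export and, through MYLIP, lowering the uptake of lipoproteins. Macrophages that take up dead cells and lipoproteins are known for strong sterol export, and macrophages and DC use both synthesis routes for their membranes.

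Levels are expression signals in CPM, read counts per gene scaled by the authors to the size of each library. In each library 10 CPM stood for an estimated 464 to 574 reads, and 2 gene models rich in ribosomal RNA sequence, Gm26917 and Gm42418, took 5.94% to 12.5% of the summed signal. Ranges after a level or fold are 95% intervals on those estimated reads, and cover counting error only. Since each population had 1 library, no difference could be set against replicate error, and no p-value is given. A gene counted as at least 2-fold apart when log2(CPM + 1) differed by at least 1, provided that its higher value was 10 CPM or more. That scale understates the change of low genes, and folds printed for single genes are plain ratios of CPM. A difference in a bulk library can come from a different share of cells that express a gene or from a different amount of RNA per cell, and these cannot be told apart. Of 6 cDC1 markers, 5 were highest in cDC1, Xcr1 and Clec9a among them. Cadm1 was not far lower in cDC2, at 73.6 CPM against 87.6 CPM in cDC1. The sixth, Batf3, was level between CD103int DC (16.2 CPM) and cDC1 (16.1 CPM). The cDC2 markers Cd209a, Irf4 and Clec10a were lowest in the library labelled cDC2 and highest in cDC1, which goes against both labels in part. The other 3 cDC2 markers did not show this: Itgam, which encodes CD11b, had 688 CPM in CD103int DC, 36.7 CPM in cDC1, 638 CPM in cDC2 and 945 CPM in macrophages, and Sirpa and Mgl2 were also higher in cDC2 than in cDC1. The summed level of 7 macrophage markers was 2054 CPM in CD103int DC, 630 CPM in cDC1, 3264 CPM in cDC2 and 3276 CPM in macrophages, so that the library labelled cDC2 carried as much of them as the macrophage library. The DC markers Flt3, Zbtb46, Dpp4 and Kit summed to 119 CPM in CD103int DC, 518 CPM in cDC1, 85.0 CPM in cDC2 and 115 CPM in macrophages. Pairs that do not involve the library labelled cDC2 give the results without it. The 6 pairs share libraries, so their results are not independent of each other.

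Synthesis genes were highest in cDC1. Of the 34 genes, 28 had their highest level there, namely 16 of 17 sterol enzymes, 8 of 10 fatty acid enzymes and 4 of 7 regulators and carriers. In 25 of these 28 the counting interval in cDC1 lay above that of the next library, the other 3 being Mvk, Nsdhl and Sc5d. Among the 33 genes with at least 10 CPM in some library, 27 were highest in cDC1, beside 31.1% of all 8724 such genes. This number does not rest on the library labelled cDC2, since leaving it out cannot remove a lead of cDC1. The CD103int DC library ranked between the libraries labelled cDC1 and cDC2. Of the 33 genes, 26 were lower in CD103int DC than in cDC1 and higher than in cDC2, an order that 24.7% of all such genes showed. For the sterol enzymes it lay nearer cDC2, with median log2 differences of 0.15 over cDC2 and -0.56 over cDC1, and 0.13 over macrophages. For the fatty acid enzymes the medians were 0.41 over cDC2 and -0.50 over cDC1. Of all genes, 1.56% were 2-fold or more higher and 0.665% lower in CD103int DC than in cDC2. Against cDC1 these shares were 9.16% and 5.46%. For Acat2, Mvk, Hsd17b7, Dhcr7 and Srebf1 the step from cDC2 was within counting error. The lead of cDC1 was mostly modest. Only the sterol enzymes Pmvk, Fdps and Hsd17b7 and the desaturase Fads2, 4 genes of 33, were at least 2-fold above every other library, beside 3.83% of all genes.

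**Figure D1:**
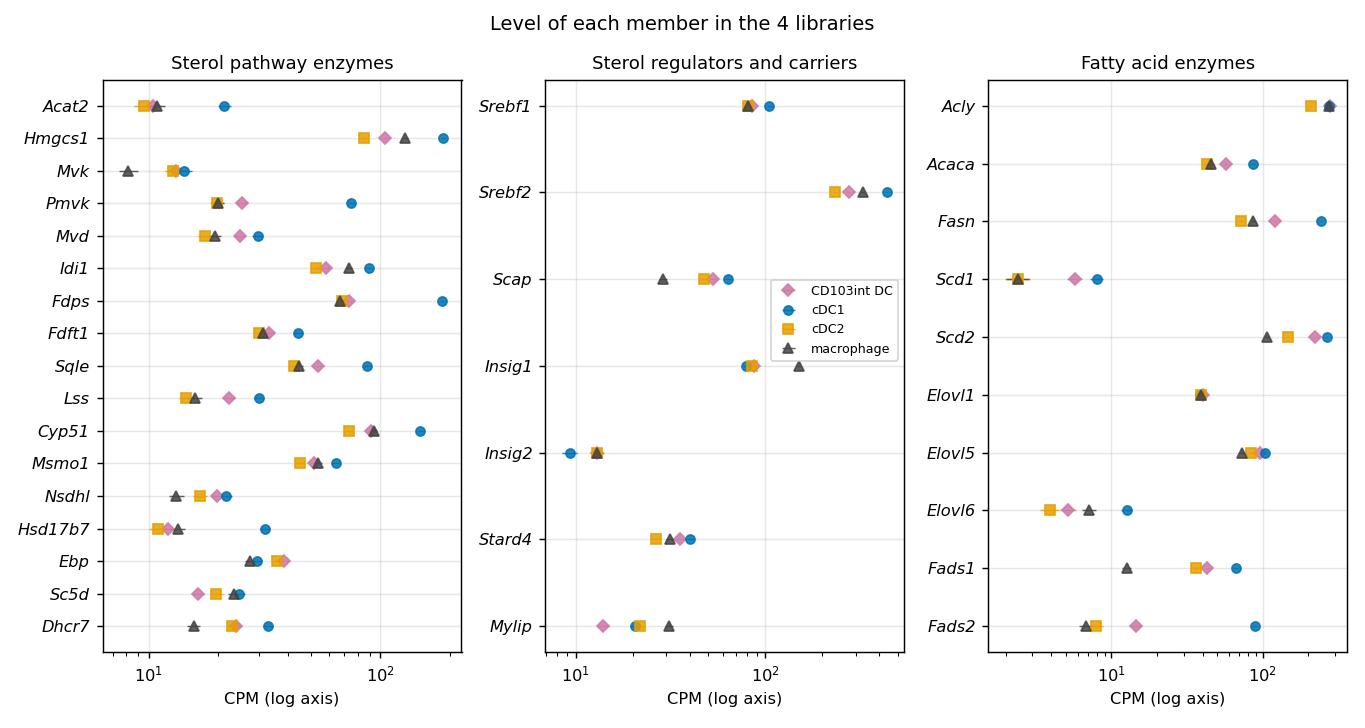
Level of each of the 34 genes in CD103int DC (diamonds), cDC1 (circles), cDC2 (squares) and macrophages (triangles), in CPM on a log axis, with 95% counting intervals as bars where they exceed the symbol. The cDC1 circle lies farthest right in 28 of 34 genes, with the widest gap for Fads2, while Insig1 and Mylip lie farthest right in macrophages.

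Because many of these genes moved together, the RefSeq promoters of the GRCm38.p6 build, from 250 bases before the start to 50 after it, were searched for motifs. Promoters were at hand for 27 of the 34 genes, and Fdps, Fdft1, Sqle, Stard4, Scd1, Scd2 and Fads1 had no entry. The CCAAT box, bound by NF-Y, a partner of SREBP at sterol genes, was searched as CCAAT and its complement ATTGG. It was found in 13 of 14 sterol enzyme genes (92.9%), in 5 of 6 regulators and in 4 of 7 fatty acid enzyme genes (57.1%), beside 42.8% of the 9615 genes of the table with an entry. The GC box GGGCGG was found on either strand in 13 of 14 sterol enzyme genes and 3 of 7 fatty acid enzyme genes (42.9%), beside 67.5% of all. The sterol response element searched as TCACNCCAC on either strand was found in Hmgcs1 alone of the 27, beside 1.40% of all, and the E-box CACGTG in 6 of the 27 (22.2%), beside 11.8%. A gene with several entries counted when any held the motif, and a match describes letters, not binding. Acaca counted as a fatty acid enzyme gene with none of these motifs. Its nearest RefSeq start lies 65766 bases from the GENCODE start, so the region at the GENCODE start was not searched.

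The promoters printed here are those of Hmgcs1, which held the sterol response element, of Pmvk, Hsd17b7 and Fads2, which were set apart in cDC1, and of Insig1, which was highest in macrophages. They run 5′ to 3′ on the gene's strand, and capitals mark CCAAT boxes and, in Hmgcs1, also the sterol response element TCACCCCAC that starts 137 bases before the gene's start.
Hmgcs1 promoter, chr13:119690101-119690400, plus strand: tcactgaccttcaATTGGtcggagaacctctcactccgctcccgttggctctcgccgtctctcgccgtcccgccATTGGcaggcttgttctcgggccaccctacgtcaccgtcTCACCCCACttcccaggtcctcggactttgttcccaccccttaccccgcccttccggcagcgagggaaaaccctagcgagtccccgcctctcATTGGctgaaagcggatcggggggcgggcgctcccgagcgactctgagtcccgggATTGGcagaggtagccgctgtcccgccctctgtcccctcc
Pmvk promoter, chr3:89454291-89454590, plus strand: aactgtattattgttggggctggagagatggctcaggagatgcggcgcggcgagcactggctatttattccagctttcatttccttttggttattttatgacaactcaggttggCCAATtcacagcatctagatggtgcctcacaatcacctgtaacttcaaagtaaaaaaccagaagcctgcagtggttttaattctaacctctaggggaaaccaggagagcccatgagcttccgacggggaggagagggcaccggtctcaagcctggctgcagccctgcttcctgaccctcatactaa
Hsd17b7 promoter, chr1:169969156-169969455, minus strand: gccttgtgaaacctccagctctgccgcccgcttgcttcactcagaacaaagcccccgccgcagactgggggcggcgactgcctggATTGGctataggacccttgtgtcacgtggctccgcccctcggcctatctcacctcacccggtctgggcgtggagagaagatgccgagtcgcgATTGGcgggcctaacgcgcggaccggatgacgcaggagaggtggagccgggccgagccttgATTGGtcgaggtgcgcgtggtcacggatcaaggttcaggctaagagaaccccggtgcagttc
Fads2 promoter, chr19:10101454-10101753, minus strand: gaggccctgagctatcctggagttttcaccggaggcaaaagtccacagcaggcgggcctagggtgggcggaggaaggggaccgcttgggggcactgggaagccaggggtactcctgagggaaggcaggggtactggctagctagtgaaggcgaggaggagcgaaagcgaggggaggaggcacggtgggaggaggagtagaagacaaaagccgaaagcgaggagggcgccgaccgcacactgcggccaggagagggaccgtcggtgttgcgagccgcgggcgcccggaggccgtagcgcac
Insig1 promoter, chr5:28071162-28071461, plus strand: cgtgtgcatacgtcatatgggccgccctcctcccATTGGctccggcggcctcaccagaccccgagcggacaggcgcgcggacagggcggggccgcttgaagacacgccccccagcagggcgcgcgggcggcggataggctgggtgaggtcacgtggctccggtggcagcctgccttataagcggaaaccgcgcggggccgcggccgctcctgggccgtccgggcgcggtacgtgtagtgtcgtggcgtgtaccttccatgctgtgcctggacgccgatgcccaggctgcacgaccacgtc

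The capitals show 4 CCAAT boxes in Hmgcs1, 3 in Hsd17b7 and 1 each in Pmvk and Insig1, while the Fads2 window held none. The RefSeq start of the Fads2 window lies 243 bases from the GENCODE start. A link of these letters to the level of a gene in any library was not tested.

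Among sterol enzymes, Pmvk, Hsd17b7 and Fdps differed most between libraries. Pmvk, phosphomevalonate kinase (chromosome 3, 89454541 to 89469013, plus strand, GRCm38), had 25.3 CPM in CD103int DC, 75.0 CPM in cDC1, 19.7 CPM in cDC2 and 19.9 CPM in macrophages. Its level in CD103int DC was lower than in cDC1 by 2.96-fold (2.79 to 3.15), and the cDC1 level was 3.80-fold (3.53 to 4.09) that of cDC2 and 3.77-fold (3.52 to 4.04) that of macrophages. The cDC1 library thus stood alone, and the other 3 lay close together. Hsd17b7, which reduces a keto group during the loss of the sterol's methyl groups (chromosome 1, 169949535 to 169969241, minus strand), showed the same shape late in the route, at 12.2 CPM in CD103int DC, 31.9 CPM in cDC1, 11.0 CPM in cDC2 and 13.3 CPM in macrophages. Fdps, which makes the isoprenoid farnesyl diphosphate (chromosome 3, 89093588 to 89101959, minus strand), stood at 73.4 CPM in CD103int DC, 185 CPM in cDC1, 68.6 CPM in cDC2 and 67.0 CPM in macrophages. The 2.69-fold (2.58 to 2.80) lead of cDC1 over cDC2 in Fdps exceeded its counting error by far, but 26.2% of its 50-base words also occur in transcripts of other gene models, mostly Gm43738 on the same strand.

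Hmgcs1, the cytosolic synthase of HMG-CoA (chromosome 13, 119690379 to 119708260, plus strand), had 105 CPM in CD103int DC, 187 CPM in cDC1, 85.3 CPM in cDC2 and 128 CPM in macrophages. Acat2, which supplies its substrate acetoacetyl-CoA, had 10.4 CPM in CD103int DC, 21.2 CPM in cDC1, 9.54 CPM in cDC2 and 10.9 CPM in macrophages. For these genes, as for Idi1, which isomerises the first isoprenoid (58.4 CPM in CD103int DC, 89.3 CPM in cDC1, 52.7 CPM in cDC2, 73.0 CPM in macrophages), the second highest library was the macrophage one. For Acat2 the step from CD103int DC was within counting error. Equal totals shift CD103int DC over macrophage by 0.26 on the log2 scale, beside differences of -0.28 in Hmgcs1 and -0.32 in Idi1. Acat2 shares 39.1% of its 50-base words with its neighbour copy Acat3, which was listed at 0.510 CPM in CD103int DC, 2.02 CPM in cDC1, 0.146 CPM in cDC2 and 0.605 CPM in macrophages. Idi1 shares 17.7% with Gm13502, which had at most 3.58 CPM. Mvd, which decarboxylates mevalonate diphosphate, had 24.9 CPM in CD103int DC, 29.5 CPM in cDC1, 17.5 CPM in cDC2 and 19.3 CPM in macrophages. Mvk, mevalonate kinase, separated the macrophages instead, at 13.1 CPM in CD103int DC, 14.3 CPM in cDC1, 12.7 CPM in cDC2 and 8.17 CPM in macrophages.

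Sqle, Cyp51 and Lss, on either side of lanosterol, had similar ratios of the highest to the lowest library, from 2.04 to 2.07. Sqle, squalene epoxidase and a rate-limiting enzyme of the route, had 53.9 CPM in CD103int DC, 87.7 CPM in cDC1, 42.4 CPM in cDC2 and 44.5 CPM in macrophages. Cyp51, lanosterol demethylase, had 91.4 CPM in CD103int DC, 148.9 CPM in cDC1, 72.9 CPM in cDC2 and 93.7 CPM in macrophages, and Lss, which closes the sterol rings, had 22.2 CPM in CD103int DC, 30.0 CPM in cDC1, 14.6 CPM in cDC2 and 15.9 CPM in macrophages. In all of them cDC1 led and cDC2 was lowest, though for Sqle and Lss the macrophage level did not differ from cDC2 beyond counting error. Lss fell just short of 2-fold on the log scale between cDC1 and cDC2 (difference 0.997). Fdft1, squalene synthase, ranged from 29.9 CPM in cDC2 to 44.3 CPM in cDC1, and 774 bases of its exons overlap those of the cathepsin gene Ctsb on the opposite strand, which had 442 CPM in cDC1 and 1534 to 2570 CPM in the other libraries. Whether the counting used strand is not given in the sources used here, so some reads of Fdft1 may belong to Ctsb.

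The last steps to cholesterol were less uniform. Msmo1 and Nsdhl, which remove methyl groups, had 51.7 and 19.7 CPM in CD103int DC, 64.2 and 21.5 CPM in cDC1, 45.0 and 16.6 CPM in cDC2, and 54.0 and 13.2 CPM in macrophages. Ebp, the sterol isomerase, was the 1 sterol enzyme not led by cDC1, with 38.6 CPM in CD103int DC, 29.4 CPM in cDC1, 36.0 CPM in cDC2 and 27.3 CPM in macrophages. Sc5d, a sterol desaturase, was lowest in CD103int DC, at 16.3 CPM, against 24.5 CPM in cDC1, 19.6 CPM in cDC2 and 23.3 CPM in macrophages. Dhcr7, which catalyses the final reduction to cholesterol, had 23.9 CPM in CD103int DC, 32.7 CPM in cDC1, 23.0 CPM in cDC2 and 15.6 CPM in macrophages, a 2.09-fold (1.92 to 2.28) excess of cDC1 over macrophages. The lowest library was cDC2 for 11 of 17 enzymes, macrophages for 5 and CD103int DC for Sc5d. The same share over all genes was not computed. For Pmvk, Fdps, Fdft1, Sqle and Lss, cDC2 and macrophages did not differ beyond counting error. Equal totals also shift every cDC2 over macrophage difference by 0.27 on the log2 scale, beside differences of -0.07 in Sqle and -0.12 in Lss.

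**Figure D2:**
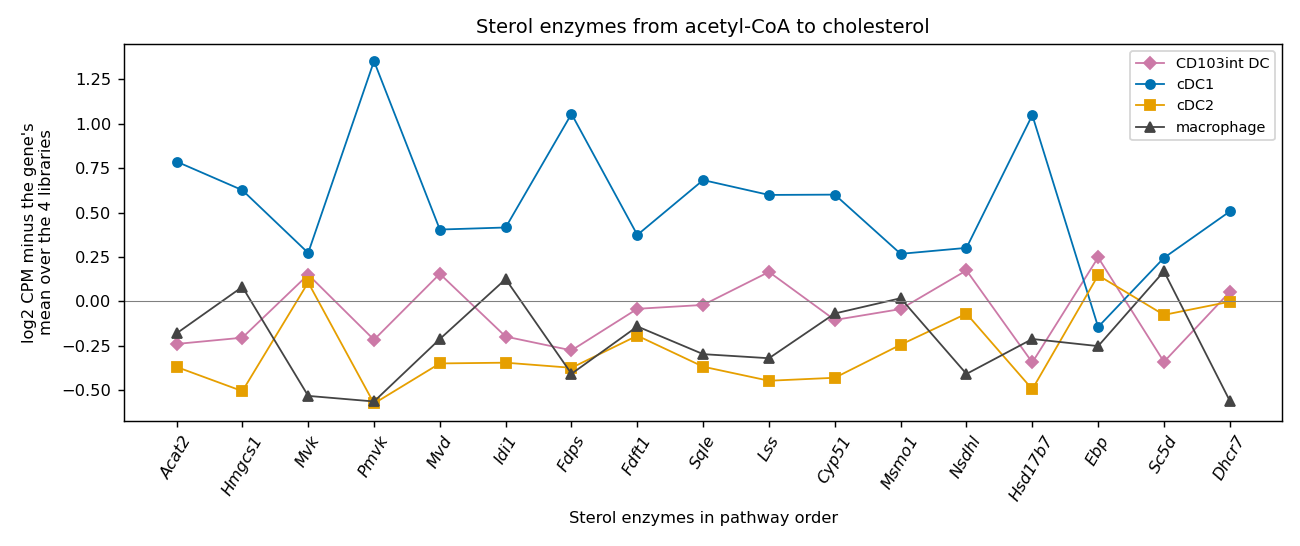
Sterol enzymes in pathway order, from Acat2 to Dhcr7, as log2 CPM minus each gene's mean over the 4 libraries (lines join the genes of a library only to guide the eye). The cDC1 line runs on top except at Ebp, with peaks at Pmvk, Fdps and Hsd17b7, and the CD103int DC line lies above the cDC2 line except at Sc5d.

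Counted by pair, CD103int DC had 0 of 17 sterol enzymes 2-fold or more above cDC1 and 3 that far below it, beside 9.16% and 5.46% of all genes. Their median log2 difference was -0.56, beside 0.01 over all genes, whose median rounded to at most 0.01 in size in each of the 6 pairs. Against cDC2, 0 were higher and 0 lower in CD103int DC (1.56% and 0.665% of all genes), yet 16 of 17 lay above 0, with a median of 0.15. Against macrophages, 0 and 0 were apart in CD103int DC (4.35% and 8.31% of all genes), with a median of 0.13. In cDC1, 7 of 17 exceeded cDC2 by 2-fold or more and 0 were lower by as much, beside 7.27% and 9.56% of all genes, with a median of 0.75; the 7 were Acat2, Hmgcs1, Pmvk, Fdps, Sqle, Cyp51 and Hsd17b7, of which Acat2, Sqle and Cyp51 were under 2-fold with a pseudocount of 5. Against macrophages, 4 were higher in cDC1 and 0 lower (9.21% and 15.8% of all genes; median 0.67), namely Pmvk, Fdps, Hsd17b7 and Dhcr7. That count was 10 with the columns rescaled to equal totals, and Dhcr7 was under 2-fold with a pseudocount of 5. The cDC2 and macrophage libraries had 0 sterol enzymes at least 2-fold apart, beside 1.78% of all genes higher and 6.01% lower in cDC2, and the median of -0.12 became 0.14 when the columns were rescaled to equal totals.

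**Figure D3:**
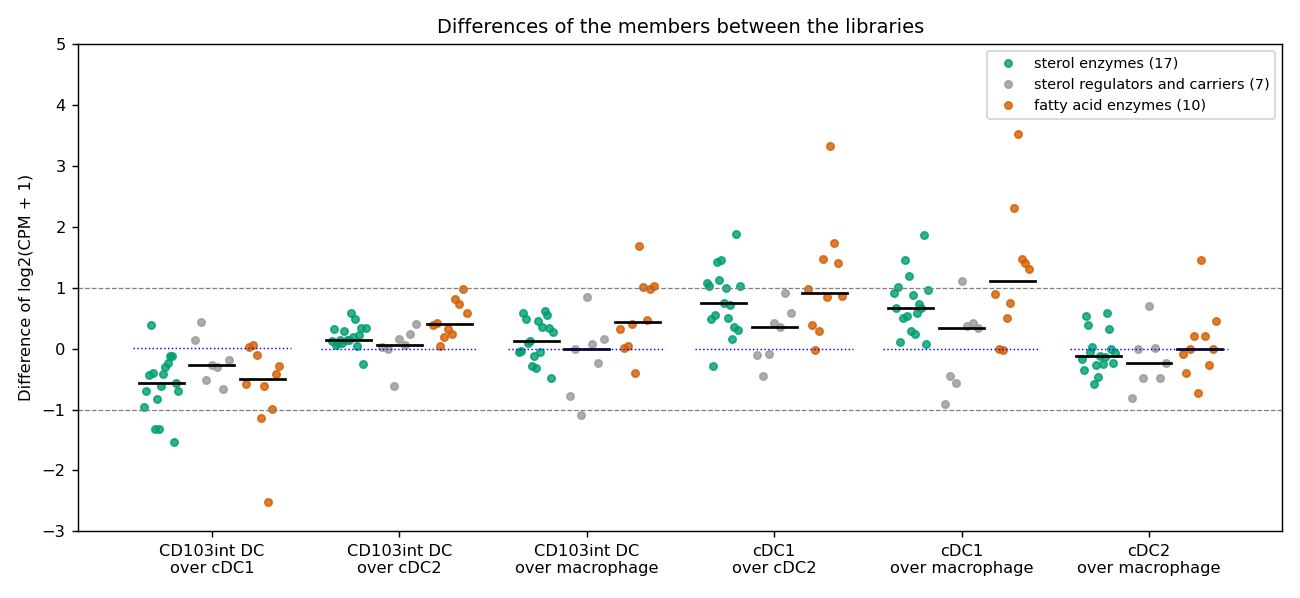
Difference of log2(CPM + 1) of each gene in the 6 pairs of libraries, first-named minus second-named, for 17 sterol enzymes, 7 regulators and carriers, and 10 fatty acid enzymes. Black bars are medians of the groups, dotted lines the median of all genes, and dashed lines mark 2-fold; in cDC1 over cDC2 and cDC1 over macrophage the sterol and fatty acid medians lie between 0.67 and 1.11.

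Regulators and carriers had a median ratio of the highest to the lowest library of 1.89, beside 2.04 for the sterol enzymes. Srebf2, the main activator of sterol genes (chromosome 15, 82147181 to 82205379, plus strand), had 275 CPM in CD103int DC, 439 CPM in cDC1, 232 CPM in cDC2 and 326 CPM in macrophages. Its order over the libraries was also that of Acat2, Hmgcs1, Idi1, Cyp51, Msmo1 and Hsd17b7, while the other sterol enzymes had other orders. How many of all genes had that order was not computed, and a link to Srebf2 was not tested. For Acat2, Cyp51, Msmo1 and Hsd17b7 the macrophage and CD103int DC levels did not differ beyond counting error. The Srebf2 difference of CD103int DC over macrophage was -0.24, and equal totals shift that pair by 0.26. Srebf1, which favours fatty acid genes, varied less, at 84.9 CPM in CD103int DC, 105 CPM in cDC1, 81.5 CPM in cDC2 and 80.9 CPM in macrophages. Scap, the escort of both factors, had 52.8 CPM in CD103int DC, 63.5 CPM in cDC1, 47.4 CPM in cDC2 and 29.0 CPM in macrophages, and was the 1 regulator in which cDC1 exceeded macrophages by 2-fold or more (2.19-fold, 2.06 to 2.33).

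Feedback genes did not share the cDC1 lead. Insig1, itself an SREBP target that retains SCAP (chromosome 5, 28071363 to 28078662, plus strand), had 87.2 CPM in CD103int DC, 79.0 CPM in cDC1, 85.4 CPM in cDC2 and 149.98 CPM in macrophages, so that the 3 DC libraries lay together below the macrophages. Insig2, its paralogue, was lowest in cDC1, at 9.28 CPM, while it had 12.9 CPM in CD103int DC, 13.02 CPM in cDC2 and 13.01 CPM in macrophages, which did not differ beyond counting error. Mylip, the LXR-induced ubiquitin ligase that limits lipoprotein uptake (chromosome 13, 45389742 to 45412022, plus strand), had 14.0 CPM in CD103int DC, 20.5 CPM in cDC1, 21.9 CPM in cDC2 and 31.0 CPM in macrophages. It was lower in CD103int DC than in macrophages by 2.21-fold (2.03 to 2.41), a difference under 2-fold on the log scale with equal totals or with a pseudocount of 5. Highest in macrophages were thus 2 of the 7, beside 38.3% of all genes with 10 CPM. Stard4, a sterol carrier, had 35.4 CPM in CD103int DC, 40.2 CPM in cDC1, 26.5 CPM in cDC2 and 31.5 CPM in macrophages. Over the 6 pairs, Mylip and Scap were the only members of this group 2-fold or more apart, each in the pair given above, and the group's median log2 difference ran from -0.26 in CD103int DC over cDC1 to 0.36 in cDC1 over cDC2.

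Fatty acid enzymes varied more than sterol enzymes. The median ratio of the highest to the lowest library was 2.85 over the 10 genes and 2.04 over the 17 sterol enzymes, beside 1.64 over all genes with 10 CPM in some library and values above 0 in each. The 10 include Scd1 (ratio 3.33), which did not reach 10 CPM. Among the 9 that did, the middle ratio was that of Scd2, at 2.50. Acly, which makes cytosolic acetyl-CoA for both routes (chromosome 11, 100476353 to 100528000, minus strand), had 279 CPM in CD103int DC, 274 CPM in cDC1, 208 CPM in cDC2 and 276 CPM in macrophages. Elovl1, an elongase of saturated very long chains, had 40.2 CPM in CD103int DC, 38.3 CPM in cDC1, 39.0 CPM in cDC2 and 39.1 CPM in macrophages, the flattest of the 34 genes. These were the 2 fatty acid enzymes highest in CD103int DC, beside 18.2% of all genes, but both leads were within counting error, and both genes were highest in cDC1 with columns rescaled to equal totals, Acly in macrophages with median-of-ratios scaling.

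Chain synthesis followed the sterol genes. Fasn, fatty acid synthase (chromosome 11, 120805846 to 120824547, minus strand), had 120.5 CPM in CD103int DC, 242 CPM in cDC1, 71.8 CPM in cDC2 and 86.3 CPM in macrophages. The level in CD103int DC was lower than in cDC1 by 2.01-fold (1.95 to 2.07), which is just under 2-fold once 1 is added to each value, and 1.68-fold that of cDC2. Acaca, acetyl-CoA carboxylase and the committed step, had 56.8 CPM in CD103int DC, 85.7 CPM in cDC1, 43.0 CPM in cDC2 and 45.5 CPM in macrophages, and shares 29.2% of its 50-base words with the gene model Gm5182, listed at 0.582 to 1.87 CPM. Both genes thus had cDC1 first and CD103int DC second, with cDC2 and macrophages close together. Elovl6, which lengthens the product of fatty acid synthase, had 5.17 CPM in CD103int DC, 12.6 CPM in cDC1, 3.92 CPM in cDC2 and 7.13 CPM in macrophages.

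The widest difference of the 34 genes was in a desaturase. Fads2, the entry enzyme of polyunsaturated fatty acid synthesis (chromosome 19, 10062765 to 10101746, minus strand), had 14.6 CPM in CD103int DC, 88.6 CPM in cDC1, 7.93 CPM in cDC2 and 6.76 CPM in macrophages. Its cDC1 level was 11.2-fold (10.04 to 12.5) that of cDC2 and 13.1-fold (11.8 to 14.6) that of macrophages, and its CD103int DC level was lower than in cDC1 by 6.06-fold (5.62 to 6.53). Among the other 3 libraries CD103int DC stood 1.84-fold (1.63 to 2.09) above cDC2. Fads1, which acts after an elongation in the same route and lies near Fads2 (chromosome 19, 10182888 to 10196877, plus strand), gave another shape, with 42.9 CPM in CD103int DC, 66.2 CPM in cDC1, 36.2 CPM in cDC2 and 12.6 CPM in macrophages. It set all 3 DC libraries above the macrophages, by 3.41-fold (3.13 to 3.72) in CD103int DC, 5.26-fold (4.84 to 5.72) in cDC1 and 2.87-fold (2.63 to 3.14) in cDC2. Per kilobase of exon, Fads2 was expressed at 1.95 times the level of Fads1 in cDC1 only, against 0.498 times in CD103int DC, 0.320 times in cDC2 and 0.784 times in macrophages. Elovl5, the elongase between these desaturation steps, was at 96.3 CPM in CD103int DC, 103 CPM in cDC1, 84.2 CPM in cDC2 and 72.5 CPM in macrophages.

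Scd2, which introduces the double bond of oleate (chromosome 19, 44293674 to 44306864, plus strand), had 220.0 CPM in CD103int DC, 267 CPM in cDC1, 147 CPM in cDC2 and 107 CPM in macrophages. The CD103int DC level was 2.06-fold (1.99 to 2.12) that of macrophages. Its paralogue Scd1 (chromosome 19, 44394455 to 44407879, minus strand) never reached 10 CPM, with 5.72 CPM in CD103int DC, 7.99 CPM in cDC1, 2.40 CPM in cDC2 and 2.40 CPM in macrophages. Scd2 exceeded Scd1 per kilobase of exon by 34.5 times in CD103int DC, 29.9 times in cDC1, 54.7 times in cDC2 and 39.9 times in macrophages, so that Scd2 was the more abundant of the pair in each library. Of their 50-base words, 4.56% of Scd1 and 3.97% of Scd2 occur in other transcripts, and the 2.66% that Scd2 shares with Scd1 can matter for the lower gene.

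**Figure D4:**
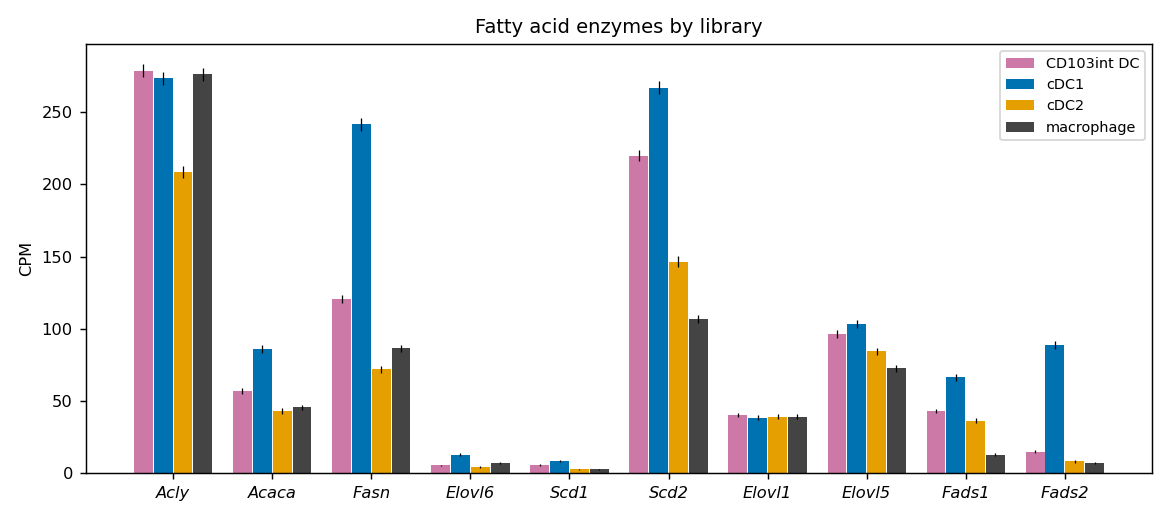
CPM of the 10 fatty acid enzymes by library, with 95% counting intervals as bars; within each gene the bars run CD103int DC, cDC1, cDC2, macrophage. Fads2 stands out in cDC1 (88.6 CPM, at most 14.6 CPM elsewhere), Fads1 and Scd2 are lowest in macrophages, and Elovl1 is level.

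By pair, of the 9 fatty acid enzymes that reached 10 CPM in CD103int DC or cDC1, 0 were 2-fold or more higher in CD103int DC and 2 were lower by as much (9.16% and 5.46% of all genes), with a median of -0.50 over the 10. These were Fads2 and Elovl6, and Elovl6 was under 2-fold in both of its pairs with a pseudocount of 5. Against cDC2, 0 of 8 were higher or lower in CD103int DC (1.56% and 0.665% of all genes), but all 10 differences lay above 0, with a median of 0.41, beside 0.00 over all genes. Against macrophages, 3 of 8 were higher in CD103int DC and 0 lower (4.35% and 8.31% of all genes; median 0.44), namely Scd2, Fads1 and Fads2, of which Fads2 was under 2-fold with a pseudocount of 5 or with median-of-ratios scaling. In cDC1, 3 of 9 were higher than in cDC2 and 0 lower (7.27% and 9.56% of all genes; median 0.92), namely Fasn, Elovl6 and Fads2. Over macrophages, 4 of 9 were higher in cDC1 and 0 lower (9.21% and 15.8% of all genes; median 1.11), namely Fasn, Scd2, Fads1 and Fads2. In cDC2, Fads1 alone of 7 was higher than in macrophages and 0 were lower (1.78% and 6.01% of all genes).

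Genes of sterol handling outside the 34 ran the other way. Of genes of uptake, export and esterification, 9 of 14 lay 2-fold or more lower in cDC1 than in cDC2, beside 9.56% of all genes, and 7 of 13 lower than in macrophages, beside 15.8%, with 0 higher in either pair. In CD103int DC, 7 of 13 exceeded cDC1 by 2-fold or more, beside 9.16% of all genes. Nr1h3, which encodes LXR-alpha, had 50.004 CPM in CD103int DC, 6.65 CPM in cDC1, 109 CPM in cDC2 and 105 CPM in macrophages. The LXR target Abca1, a sterol exporter, had 56.7 CPM in CD103int DC, 11.6 CPM in cDC1, 63.4 CPM in cDC2 and 62.5 CPM in macrophages, and Apoe, an acceptor of exported sterol, had 67.5 CPM in CD103int DC, 14.4 CPM in cDC1, 175 CPM in cDC2 and 243 CPM in macrophages. All 7 macrophage markers were likewise lowest in cDC1, and their part in this difference was not tested.

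**Figure D5:**
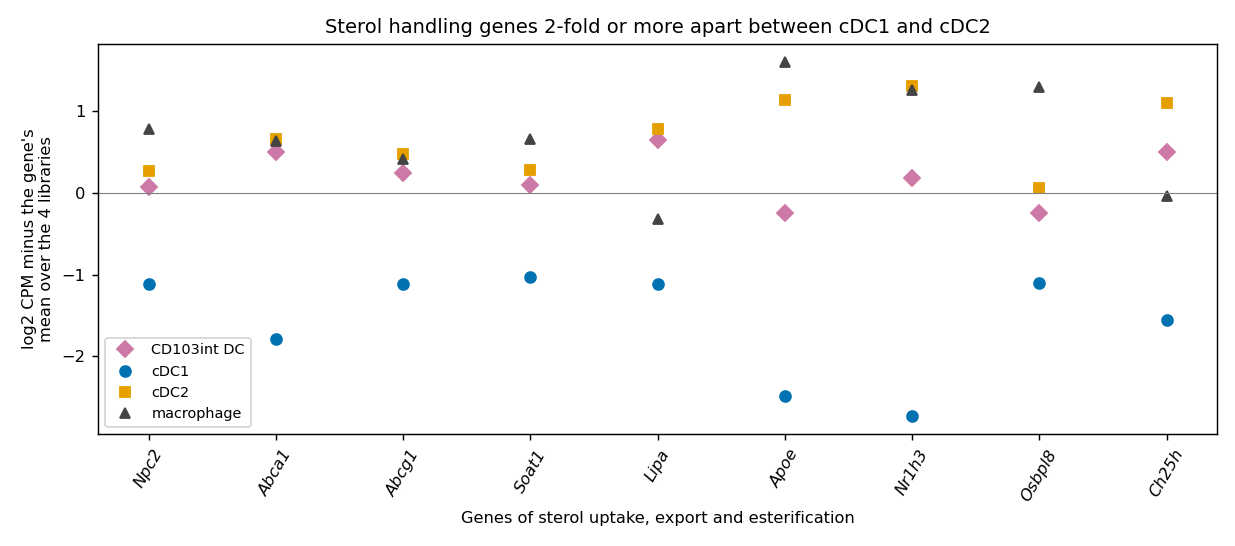
Genes of sterol uptake, export and esterification that were 2-fold or more apart between cDC1 and cDC2, as log2 CPM minus each gene's mean over the 4 libraries. The cDC1 circle is lowest for each of these 9 genes, which were chosen for that difference, and lies farthest below the others for Nr1h3.

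Marker lists of other cell types and states also differed between the libraries. Of 8 proliferation genes, 4 were highest in CD103int DC and 4 in cDC1, and their summed level was 299.5 CPM in CD103int DC, 285 CPM in cDC1, 108 CPM in cDC2 and 78.7 CPM in macrophages. Plasmacytoid DC markers were highest in cDC1 for 4 of 5 genes, with sums of 143 CPM in CD103int DC, 741 CPM in cDC1, 187 CPM in cDC2 and 293 CPM in macrophages. Mature DC markers summed to 81.8 CPM in CD103int DC, 321 CPM in cDC1, 84.4 CPM in cDC2 and 79.4 CPM in macrophages, the cDC1 sum being mostly Il4i1. Their part in the lead of cDC1 was not tested. Of 6 adipocyte markers the table held Fabp4, at 1.06 CPM in CD103int DC, 0.652 CPM in cDC1, 4.44 CPM in cDC2 and 9.14 CPM in macrophages. Of 6 epithelial markers it held 3, and Krt8 and Epcam stood below 10 CPM in each library, while Cdh1, which DC also express, had 416 CPM in cDC1. The macrophage column carries another name prefix than the DC columns, which the labels do not explain, so that a batch marked by it and the macrophage population cannot be told apart.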

How the data were processed

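RNA of 4 sorted populations was sequenced, with 1 library each; per the labels' protocols, RNA was isolated with a column kit and DNase I, and libraries were made with a directional kit. The deposited values are an expression signal, CPM with TMM scaling of library sizes and a filter on genes, per the table's name. The macrophage column sums to over 1000000, so they are not plain CPM. The sources used here name no aligner, counting program or build. All 13976 identifiers matched GENCODE M21 (GRCm38). The value of 1 read (0.0174 to 0.0216 CPM) was found as the step of low values; 66.8% to 79.0% of values above 0 were whole multiples at a tolerance of 0.001 steps, so no count test was run. Exact Poisson intervals (levels) and Clopper-Pearson intervals (folds) were computed with Python 3.11.15 and SciPy 1.17.1. These cover counting error only, since PCR copies cannot be told from separate molecules. The libraries held an estimated 44425907 to 63817507 reads.

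Levels were compared on log2(CPM + 1) by size: at least 2-fold with at least 10 CPM in the higher library, for all 6 pairs. Medians used genes with at least 1 CPM in the higher library. The call rule was tested on simulated data. Every one of the 34 genes is named by rule. Members and lists were chosen with earlier results of these data known. Genes outside them were named where at least 2-fold apart with 10 CPM; single marker genes were named after their values were seen. Some further sterol genes are not reported here.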

Additional observations from a re-analysis of the deposited data

How the results depend on the processing

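No paired analysis was possible because each population had 1 library, and for the same reason no library could be left out of a pair. Of 272 recomputed list results, 248 stayed within the tolerance set for them (1.5 times for counts). The rest follow, as sterol enzymes and then fatty acid enzymes. With a fold of 1.5 in place of 2, the numbers lower in CD103int DC than in cDC1 were 8 and 4; 1 sterol enzyme was higher in CD103int DC than in macrophages and 2 fatty acid enzymes higher than in cDC2; cDC1 had 11 sterol enzymes higher than macrophages and 6 fatty acid enzymes higher than cDC2. With a fold of 4, the numbers lower in CD103int DC than in cDC1 were 0 and 1, those higher in cDC1 were 0 and 1 over cDC2 and 0 and 2 over macrophages, and 0 fatty acid enzymes were higher in CD103int DC or in cDC2 than in macrophages. With a pseudocount of 5, 4 sterol enzymes were higher in cDC1 than in cDC2 and 1 fatty acid enzyme was lower in CD103int DC than in cDC1. Scaling mattered where macrophages were compared, since equal totals shift every difference of cDC1 over macrophage by 0.37 and of cDC2 over macrophage by 0.27 on the log2 scale. With equal totals, 10 sterol enzymes were higher in cDC1 than in macrophages (8 with the 1% of genes with the highest mean left out of the totals), with a median of 1.03 (0.996). The medians of cDC2 over macrophage changed sign, to 0.14 (0.12) for sterol and 0.22 (0.21) for fatty acid enzymes. Of 29 single-gene differences of at least 2-fold, recomputed 145 times in all, 0 changed sign and 11 recomputed values were below 2-fold. Of the 33 genes with 10 CPM, 27 to 29 were highest in cDC1 under the scalings tried. Depth limits the low genes most: Scd1 in cDC2, at 2.40 CPM, had a counting interval of 1.97 to 2.89 CPM.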

Other observations

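Of 19 other fatty acid synthesis and esterification genes in the table, 8 were highest in cDC1, beside 31.1% of all genes with 10 CPM. The 19 include Gpam (at most 9.16 CPM) and Cbr4 (at most 5.63 CPM), which did not reach 10 CPM and were highest in cDC2. The median log2 difference of the 19 was -0.04 in cDC1 over cDC2 and 0.14 in cDC1 over macrophage, beside 0.92 and 1.11 for the 10 enzymes. Dgat2, which makes the last step of triglyceride synthesis, stood apart in macrophages, with 7.02 CPM in CD103int DC, 2.69 CPM in cDC1, 6.98 CPM in cDC2 and 30.8 CPM in macrophages. Acss2, which makes acetyl-CoA from acetate and is an SREBP target, had 3.44 CPM in CD103int DC, 12.4 CPM in cDC1, 5.73 CPM in cDC2 and 10.3 CPM in macrophages.

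Among 13 fatty acid oxidation genes, Acadl, Cpt1a and Pparg were those 2-fold or more apart between cDC1 and another library. Over macrophages, 1 of 12 was higher in cDC1 and 2 lower, beside 9.21% and 15.8% of all genes. Over cDC2, 1 of 13 was higher and 1 lower, beside 7.27% and 9.56%. In CD103int DC, 2 of 12 were higher than in cDC1 and 1 lower, beside 9.16% and 5.46%. Acadl, an acyl-CoA dehydrogenase of long chains, was highest in cDC1, at 77.9 CPM in CD103int DC, 212 CPM in cDC1, 70.9 CPM in cDC2 and 74.7 CPM in macrophages. Cpt1a, which admits fatty acids to mitochondria, was lowest there, at 167 CPM in CD103int DC, 68.0 CPM in cDC1, 126 CPM in cDC2 and 143 CPM in macrophages. Pparg, a lipid-sensing nuclear receptor, had 27.3 CPM in CD103int DC, 2.94 CPM in cDC1, 39.8 CPM in cDC2 and 33.7 CPM in macrophages.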
